A study of Arabidopsis thaliana with 26 samples.

Results

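In 154 of 26676 array rows, leaves of the Arabidopsis mutant pif5 had risen after 6 days of darkening while Col-0 leaves stood close to their level in light. The rows were chosen from the group means at days 0 and 6. The pif5 day 6 mean had to exceed the pif5 light mean by at least 1 on the log2 scale, and the Col-0 change over the same days had to lie within 0.5 of 0. The rule would have kept the 200 rows with the widest gap between the changes, but only 154 met it, so all were kept. They are part of 921 rows with a pif5 change of at least 1 at day 6. Another 733 of those rose by 0.5 or more in Col-0 too, and 34 fell there by 0.5 or more.

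Leaf blades of Col-0 and of the PIF5 knockout line pif5-621 were profiled on single-colour arrays with biotin-labelled cRNA. Plants of both genotypes grew in short days at 22 C, and the 2 covered leaves of a plant were kept dark while its rosette stayed in the light and dark cycle. Each genotype has 3 arrays in light (day 0) and 3 arrays for each of days 1, 3 and 6 of darkening. Day 12 has 2 arrays, from pif5. All samples were taken at noon. The mutant is represented by a single line, no Col-0 group of day 12 was analysed here, and the only leaves in light were those of day 0, so darkening and elapsed time cannot be told apart. Whether replicates are separate plants is not stated in the labels, so the p-values rest on a spread between samples that may be technical. Whole leaves were measured, in which a change in the mix of cells and a change of RNA per cell cannot be told apart.

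PIF5 belongs to the phytochrome-interacting factors, basic helix-loop-helix transcription factors that bind active phytochrome in light and are then degraded. In darkness they accumulate, and PIF5 and its close relatives are known to promote senescence of darkened leaves, through ethylene and abscisic acid signalling among other routes. Senescing leaves dismantle chloroplasts, break down chlorophyll and export nitrogen. Mutants that lack these factors keep darkened leaves green for longer.

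Rows are cited here by their identifier in the deposited table. The platform annotation lists 1 gene for 96 of the 154 rows, several for 3 and none for 55, much like the whole table (62.3% of the chosen rows and 60.7% of all rows have 1 gene). Its gene names did not pass a check against the values, which rested on few rows. Of 40 names of photosystem and light-harvesting proteins, which are abundant in leaf RNA, 7 matched a row. These 7 had a median light level at percentile 71.6 of all rows, and the single row matched to a cytosolic ribosomal protein lay at percentile 8.4, where percentile 80 had been required of both. The names and the leaf identity of the samples could therefore not be checked, and no gene, pathway or promoter is assigned to a row. No row is listed for PIF5, whose transcript was not analysed here, and the genotypes rest on the labels alone.

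The 154 rows were of middling to high signal in light, at a median percentile of 69.5, with 127 above the median row and 20 within the top 10%. Their median level was 5.57 on the log2 scale in Col-0 light and 5.42 in light-grown pif5, against 4.31 for all rows in both. It then stayed between 5.47 and 5.61 in darkened Col-0 leaves. In pif5 it was 5.59 at day 1, 6.23 at day 3, 6.73 at day 6 and 6.77 at day 12. The median of all rows meanwhile moved from 4.31 in light to 4.22 at day 6 in pif5 and to 4.23 in Col-0. Within groups the chosen rows varied by a median SD of 0.11 to 0.18, close to the 0.11 to 0.15 of all rows.

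The values that chose the rows are given as a description. The pif5 change at day 6 ran from 1.01 to 2.18 with a median of 1.23, and the Col-0 change had a median of 0.19. The gap between the changes ran from 0.58 to 2.23 with a median of 1.14. Both changes are taken from light, so a difference between the genotypes in light is part of this gap. All pif5 day 6 arrays lay above all Col-0 day 6 arrays in 151 of the 154 rows, where 19.8% of all rows do so, but the rule used these arrays and nothing is read from this. At the edge of the rule, row 13361892 was inside with a pif5 change of 1.01 and row 13506809 outside with 0.9979. On the Col-0 side, row 13498193 was inside with 0.4996 and row 13448568 outside with 0.5007.

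At most of these rows Col-0 did not rise by 0.5 or more at day 1 or 3, but at a minority it rose and came back. The larger of its day 1 and day 3 changes stayed under 0.5 in 102 rows, lay between 0.5 and 1 in 34 and reached 1 or more in 18. Smaller rises that were kept count as no rise here, such as row 13518504 with Col-0 changes of 0.34, 0.44 and 0.46 at days 1, 3 and 6. Some of the 34 came back little, such as row 13498193 with 0.59 at day 3 and 0.4996 at day 6. These changes share the light arrays with the choice of rows, so they are given without a test. Of the 102 rows that never rose, 68 stayed within 0.5 of light at both days. The other 34 first fell by 0.5 or more and were within 0.5 of light at day 6, as the rule demands of every row. Some came back little, such as row 13501664 with Col-0 changes of -0.57 at day 1 and -0.43 at day 6. This division was made after their values were seen.

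In pif5 the change reached 1 first at day 6 in 106 rows, at day 3 in 25 and at day 1 in 23. That day differed with the course in Col-0. Of the 102 rows that never rose in Col-0, 95 reached 1 in pif5 only at day 6 and 7 at day 3. Of the 18 that rose and returned in Col-0, 16 had reached 1 in pif5 already at day 1, so at these rows day 6 marks a rise kept by pif5 and not its start.

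**Figure D1:**
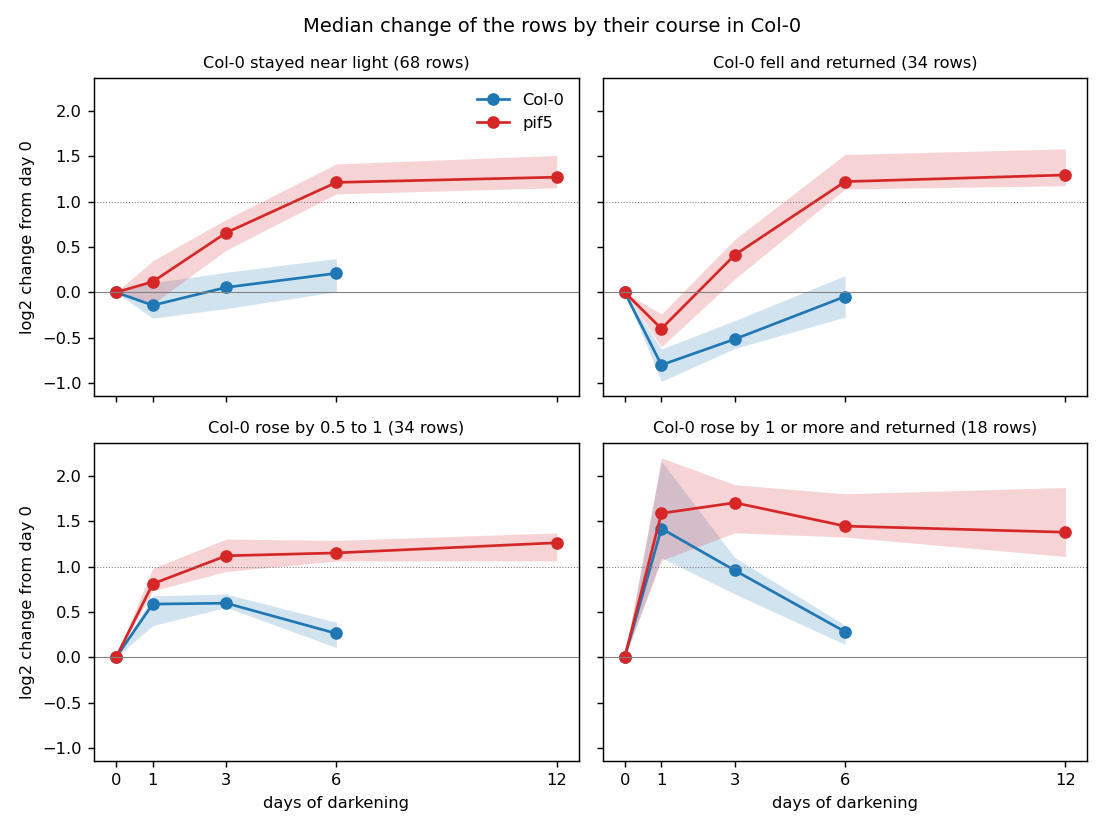
Median log2 change from day 0 of the genotype (lines and points) against days of darkening, with the range between the quartiles of the rows (bands), for Col-0 (blue) and pif5 (red), in 4 panels by the course in Col-0. In the 68 rows that stayed near light in Col-0 the pif5 median climbed to 1.21 at day 6, and in the 18 rows that rose in both genotypes it was 1.45 at day 6 while Col-0 had come back to 0.28.

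**Figure D2:**
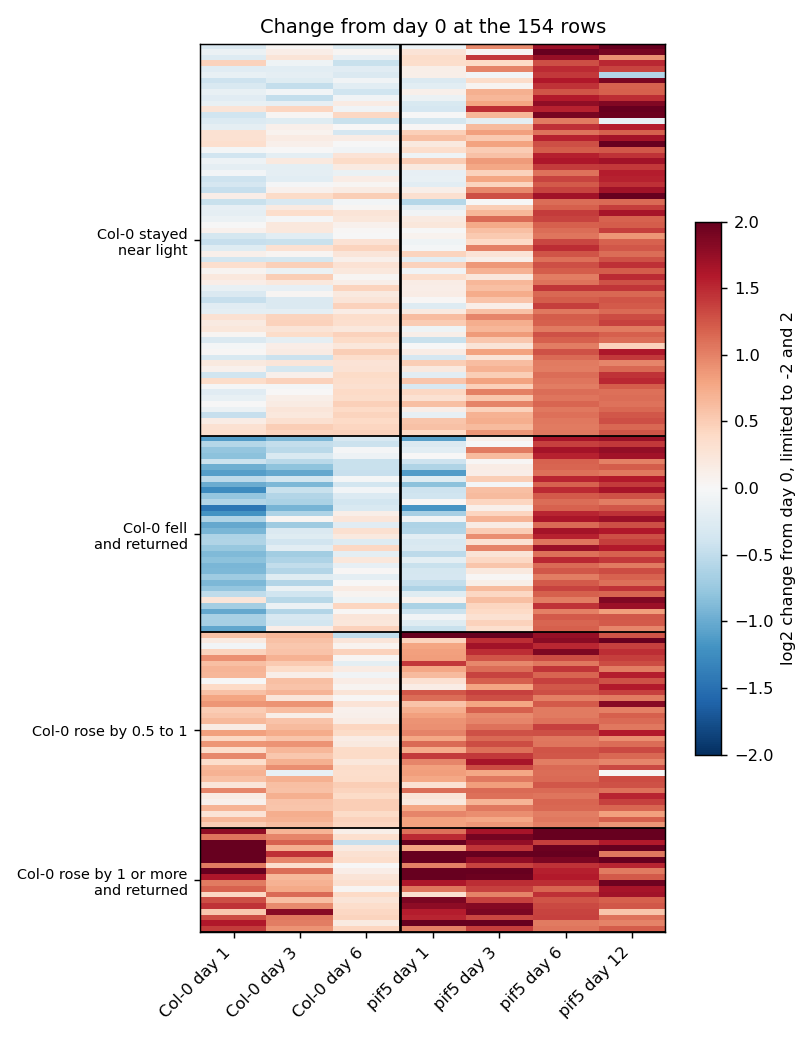
Log2 change from day 0 of the genotype for each of the 154 rows (horizontal lines) in the 3 darkened Col-0 groups and the 4 darkened pif5 groups (columns), with colours limited to -2 and 2. Rows are sorted by course in Col-0 and then by the gap at day 6. By the rule the pif5 day 6 column is red and the Col-0 day 6 column is pale. The pif5 day 12 column is red throughout most of the map.

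The genotypes were tested first at day 3, with group means from arrays the rule did not use and a spread estimated over all 26 arrays. Of the 154 rows, 101 were higher in pif5 at day 3 (65.6%), where 8.53% of all rows were, and 0 were lower, where 9.8% of all rows were (limma, Benjamini-Hochberg over all rows, threshold 0.05). A fit of the day 3 arrays alone gave 92 higher and 0 lower. The difference was above 0 in 149 rows, where 46.75% of all rows had a difference above 0. The median difference was 0.55 on the log2 scale, against -0.02 for all rows. At day 1, 12 rows were higher in pif5 (1.57% of all rows were) and 2 lower (1.83% of all rows), with a median difference of 0.13. The count of 12 was 6 in a fit of the day 1 arrays alone. It fell to 6 without pif5 day 1 replicate 2 or Col-0 day 1 replicate 2, and to 7 without Col-0 day 1 replicate 1, and the 2 lower rows fell to 1 without either of these Col-0 arrays.

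**Figure D3:**
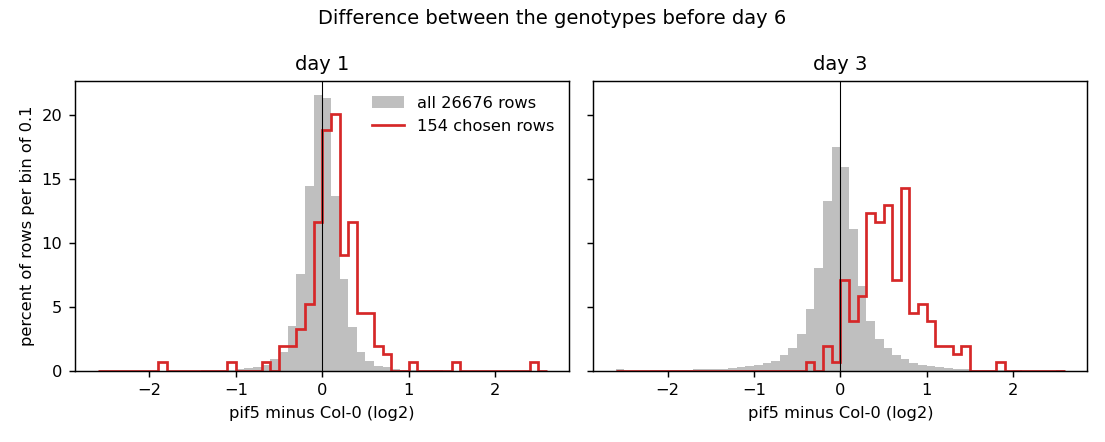
Percent of rows per bin of 0.1 in the difference pif5 minus Col-0 (log2) at day 1 and at day 3, for all 26676 rows (grey) and the 154 chosen rows (red line). The red distribution has its median at 0.13 at day 1 and at 0.55 at day 3, while the grey one stays around 0.

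From day 1 to day 3 within pif5, 83 rows rose (3.16% of all rows did) and 4 fell (4.05% of all rows), with a median difference of 0.53. The 4 were 1 without pif5 day 1 replicate 1 or without pif5 day 3 replicate 2 or 3, and 2 without pif5 day 1 replicate 2, after quantile normalization or centring, or in a fit of the compared groups alone. In Col-0 over the same days 28 rose (7.38% of all rows) and 17 fell (8.9% of all rows), with a median difference of 0.13. Leaving out Col-0 day 1 replicate 1 brought the 28 down to 15, and leaving out Col-0 day 3 replicate 3 brought them to 17. The test of the difference itself gave 36 rows with the more positive change in pif5 (3.9% of all rows) and 0 with the more negative one (3.57% of all rows).

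Most rows were still high in pif5 at day 12 by their change from light, given below as a description. The tests against days 1 and 3 ask instead whether the level had climbed since then. Of the 154, 120 were higher at day 12 than at day 1 (8.73% of all rows were) and 9 lower (13.2% of all rows). Against day 3, 88 were higher (4.58% of all rows) and 8 lower (5.72% of all rows), with a median difference of 0.59. The 8 were 3 without pif5 day 12 replicate 2 and 5 without pif5 day 12 replicate 1 or pif5 day 3 replicate 3. These comparisons rest on 2 arrays at day 12, and the one against day 3 shares its pif5 day 3 arrays with the tests above. As a description against the light arrays, which the rule also used, 139 of the 154 rows stood at 1 or more at day 12. This was so for 3.65% of all rows and for 575 of the 733 rows that rose in both genotypes.

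In the 68 rows that stayed near light in Col-0 the pif5 median changes were 0.12, 0.66, 1.21 and 1.27 at days 1, 3, 6 and 12. Between days 1 and 3 in pif5, 37 of the 68 rose (3.16% of all rows did), and between days 3 and 12, 47 did (4.58% of all rows). In both comparisons 0 of the 68 fell, where 4.05% and 5.72% of all rows did (limma calls). Row 13362164 is an example with tight replicates. Its Col-0 arrays read 5.63, 5.72 and 5.89 in light and 5.52, 5.45 and 5.59 at day 6. Its pif5 arrays read 5.67, 6.02 and 5.88 in light, 6.84, 6.83 and 6.86 after 3 days, 7.47, 7.17 and 7.42 after 6 days, and 7.19 and 7.23 after 12 days. The pif5 arrays of days 3, 6 and 12 lay above every Col-0 array. At day 3 it was higher in pif5 by 1.31 (SE 0.11, limma adjusted p = 2.5e-09), and it was chosen to be named for that difference.

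Other rows with little change in Col-0 differed in when pif5 rose. Row 13344465, of high signal in light (percentile 88.1), rose from 6.82 ± 0.11 after 1 day to 7.86 ± 0.28 after 3 days and 8.63 ± 0.15 after 6 days (SD, n = 3), and read 8.94 and 9.40 at day 12. The rise from day 1 to day 3 was 1.05 (limma adjusted p = 8.2e-05). Row 13378573 read 3.48, 3.43 and 4.06 in the pif5 day 1 arrays and 6.36, 4.81 and 5.25 at day 3, without overlap but with a wide spread at day 3. Its rise of 1.82 (limma adjusted p = 6.1e-05) was the largest in the 154 rows between these days. Row 13400507 had a pif5 minus Col-0 difference of 0.97 at day 3 (limma adjusted p = 0.00014), and its pif5 level was 7.58 ± 0.23 at day 6 (SD, n = 3) and 6.65 and 6.85 at day 12.

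A later rise was seen in row 13340577, which began below the median row (percentile 43.9). Its pif5 arrays read 3.83, 4.09 and 3.84 after 3 days and 6.22, 5.63 and 5.75 after 6 days, and stayed at 5.50 and 6.05 after 12 days. Its Col-0 arrays ranged from 3.59 to 4.48 at day 6. At day 3 the genotypes gave a difference of -0.33 (limma adjusted p = 0.30), and pif5 rose by 1.85 from day 3 to day 12 (limma adjusted p = 4.8e-06). Row 13501664 fell slightly in Col-0, by 0.57 at day 1, and had the same shape in pif5, with 3.99 ± 0.30 after 3 days and 5.37 ± 0.19 after 6 days (SD, n = 3). It rose by 1.42 from day 3 to day 12 in pif5 (limma adjusted p = 2.4e-06). Row 13378191 was also dim (percentile 44.2) but began earlier, with pif5 at 3.71 ± 0.20 after 1 day, 4.37 ± 0.08 after 3 days and 5.59 ± 0.24 after 6 days (SD, n = 3 each). It rose by a further 1.51 from day 3 to day 12 (limma adjusted p = 3.3e-07).

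Most of the 34 rows that fell first in Col-0 were also below light in pif5 at the start. At day 1 the median change was -0.80 in Col-0 against -0.40 for pif5, and 31 of the 34 were below light in both genotypes. The rows were set apart by low Col-0 changes at days 1 and 3, so a deeper dip in Col-0 is partly built in. Compared directly at day 1, 1 of the 34 was higher in pif5 and 0 lower, with a median difference of 0.17. Of all rows, 1.57% were higher and 1.83% lower (limma calls). At day 3 Col-0 was still at a median of -0.52, with 32 rows below light, whereas pif5 stood at 0.41 with 32 rows at or above light. At day 6 the medians were -0.05 and 1.22, a gap that the rule demands. In the comparisons within pif5, from the fit of all arrays, 30 of the 34 rose between days 1 and 3 (3.16% of all rows did). Between days 3 and 12, 33 rose (4.58% of all rows). All 34 were higher at day 12 than at day 1 (8.73% of all rows were). Since 31 of the 34 were below light at day 1 and the rule demands a pif5 rise at day 6, a climb after day 1 was partly built in.

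Row 13430288 shows the dip and the later climb. Its Col-0 arrays read 5.62, 5.97 and 5.87 in light. They read 4.56, 4.72 and 4.84 after 1 day, 5.05, 4.73 and 4.98 after 3 days and 5.52, 5.62 and 5.35 after 6 days. Its pif5 arrays read 5.41, 5.60 and 5.74 in light. They read 4.21, 4.61 and 4.66 after 1 day, 5.81, 5.71 and 5.61 after 3 days, 7.31, 7.05 and 7.35 after 6 days, and 7.45 and 7.13 after 12 days. The genotypes overlapped at day 1 and were apart from day 3 on. The day 3 difference was 0.79 (SE 0.14, limma adjusted p = 0.00011), and at day 1 it was -0.21 (limma adjusted p = 0.54).

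Rows 13352842, 13387357 and 13461191 ran the same way. At row 13387357 the day 1 means were 5.93 ± 0.32 in Col-0 and 5.89 ± 0.03 for pif5, with day 3 means of 6.02 ± 0.44 and 7.15 ± 0.40 (SD, n = 3 each). Its day 3 difference was 1.13 (limma adjusted p = 3.6e-05). Row 13352842 had the deepest dip in Col-0, from 7.08 ± 0.09 in light to 5.63 ± 0.26 at day 1, and its pif5 level went from 5.60 ± 0.22 after 1 day to 6.88 ± 0.03 after 3 days and 7.96 ± 0.23 after 6 days (SD, n = 3 each). Row 13461191 rose in pif5 by 0.78 from day 1 to day 3 (limma adjusted p = 5.1e-05) and by a further 1.43 to day 12 (limma adjusted p = 5e-08). Rows 13384363, 13452441 and 13352842 recovered in Col-0 as well between days 1 and 3, by 0.55, 0.65 and 0.53 (limma adjusted p = 0.0032, 0.0031 and 0.015). In pif5 they rose by 1.28, 1.25 and 1.28 over those days. Row 13465752 reached its lowest Col-0 level later, with a mean of 4.001 ± 0.034 at day 3 (SD, n = 3), when the pif5 arrays read 5.71, 5.18 and 5.51. That difference was 1.47 (SE 0.16, limma adjusted p = 1.6e-07).

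**Figure D4:**
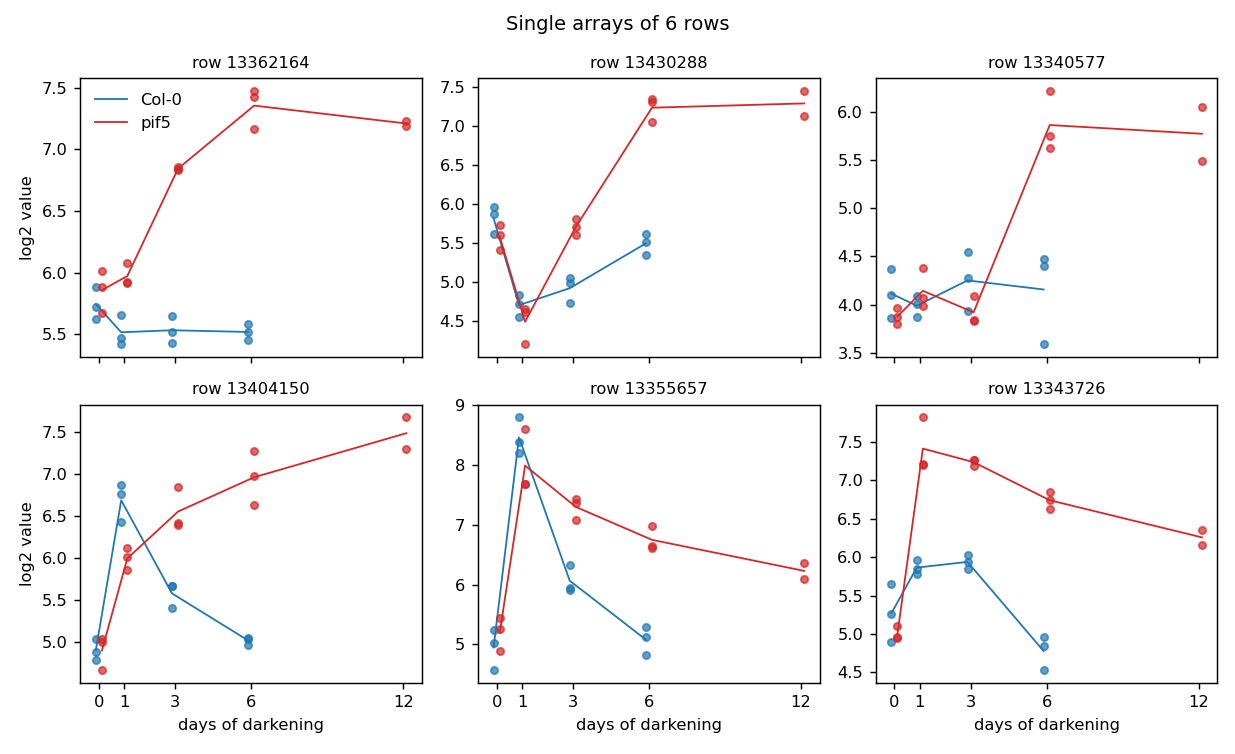
Log2 values of single arrays (points) and group means (lines) against days of darkening for 6 rows in Col-0 (blue) and pif5 (red). Row 13362164 rose in pif5 alone, row 13430288 dipped in both genotypes and then climbed above light in pif5, and row 13340577 was flat in pif5 until day 3. Rows 13404150 and 13355657 rose at day 1 in both genotypes and came back in Col-0, and row 13343726 rose in pif5 at day 1 to 7.41 and then declined.

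The 34 rows with a Col-0 rise between 0.5 and 1 had higher median changes in pif5 than in Col-0 at days 1 and 3, given as a description because the light arrays are shared with the rule. At day 6 the rule itself sets this order. Their median change in Col-0 was 0.59 after 1 day, 0.60 after 3 days and 0.26 after 6 days. In pif5 it was 0.81, 1.12, 1.15 and 1.27 over days 1, 3, 6 and 12. Compared directly, 5 of the 34 rows were higher in pif5 at day 1 (1.57% of all rows were) and 21 at day 3 (8.53% of all rows). On both days 0 of the 34 were lower, where 1.83% and 9.8% of all rows were (limma calls). Within pif5, 14 of them rose and 0 fell between days 1 and 3 (3.16% and 4.05% of all rows did). Between days 3 and 12, 5 rose and 2 fell (4.58% and 5.72% of all rows).

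The 18 rows that rose and returned in Col-0 had their peak there at day 1 in 16 rows and at day 3 in 2. Their median change in Col-0 was 1.42 at day 1, 0.96 at day 3 and 0.28 at day 6. In pif5 it was 1.59, 1.71, 1.45 and 1.38 at days 1, 3, 6 and 12. Within pif5, 2 of the 18 rose and 4 fell between days 1 and 3 (the 4 whose count depends on single arrays). Of all rows, 3.16% rose and 4.05% fell over those days. Between days 3 and 12, 3 of the 18 rose and 6 fell (4.58% and 5.72% of all rows). The difference between these counts and those of the other rows was not tested.

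Row 13355657 read 8.79, 8.38 and 8.20 in Col-0 after 1 day and 5.91, 6.33 and 5.95 after 3 days. In pif5 it read 8.60, 7.68 and 7.68 after 1 day and 7.37, 7.43 and 7.08 after 3 days, so that the day 1 arrays of the genotypes overlapped and those of day 3 did not. The day 3 difference was 1.23 (SE 0.21, limma adjusted p = 9e-05). By day 12 its pif5 arrays were down to 6.37 and 6.09. Row 13501784 likewise came down in Col-0 from 8.00 ± 0.14 after 1 day to 6.58 ± 0.27 after 3 days, and stood at 8.10 ± 0.34 and 7.65 ± 0.20 in pif5 on those days (SD, n = 3 each). Row 13467909 had the largest Col-0 rise of the 18, to 8.70 ± 0.47 at day 1 (SD, n = 3). Its Col-0 light arrays read 4.21, 4.17 and 6.13, and at day 3 the genotypes differed by -0.13 (limma adjusted p = 0.88). Row 13540648 was at 7.41 ± 0.19 after 1 day and 8.09 ± 0.39 after 6 days in pif5 (SD, n = 3 each), and its change from day 1 to day 12 did not pass (0.62, limma adjusted p = 0.0695). It was higher than Col-0 at day 3 by 1.03 (limma adjusted p = 0.00097). Row 13437101 rested on scattered arrays, with Col-0 at 5.20, 7.09 and 5.27 at day 3. In pif5 it fell by 1.32 from day 3 to day 12 (limma adjusted p = 0.031), a call lost without any of 4 single arrays (pif5 day 3 replicate 2 or 3, or either day 12 array).

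At 2 rows pif5 was lower than Col-0 at day 1 and higher later. Row 13496624 read 7.62, 7.81 and 6.47 in Col-0 at day 1 against 5.41, 5.57 and 5.35 in pif5, a difference of -1.86 (SE 0.25, limma adjusted p = 1.9e-05). At day 3 the order was turned, with a difference of 1.03 (limma adjusted p = 0.0031), and pif5 went on to 6.93 and 7.57 at day 12. Row 13404150 had a day 1 difference of -0.69 (limma adjusted p = 0.0089) and a day 3 difference of 0.97 (limma adjusted p = 3.3e-05). Its pif5 means kept rising, from 5.99 ± 0.13 after 1 day to 6.55 ± 0.25 after 3 days and 6.96 ± 0.32 after 6 days (SD, n = 3 each), to 7.29 and 7.67 at day 12.

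A few rows were higher in pif5 from day 1. Row 13343726, with the widest gap at day 6, read 5.84, 5.78 and 5.97 in Col-0 at day 1 and 7.20, 7.82 and 7.21 in pif5, a difference of 1.55 (SE 0.16, limma adjusted p = 4.6e-07). Its pif5 level then declined, by 0.98 from day 3 to day 12 (limma adjusted p = 0.00044). Row 13368287 reached the highest level of the 154 rows, 12.18 ± 0.44 in pif5 at day 1 against 9.71 ± 0.50 in Col-0 (SD, n = 3 each), a difference of 2.48 (limma adjusted p = 0.0009). Its light arrays spread widely, from 6.03 to 8.23 in the 3 Col-0 arrays and from 6.96 to 8.46 in the pif5 ones. At row 13428690 the difference was 0.69 at day 1 (limma adjusted p = 0.036) and 1.41 at day 3 (limma adjusted p = 2.4e-06), and pif5 fell by 0.75 from day 3 to day 12 (limma adjusted p = 0.02).

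Of the rows near the lower end of the gap, row 13518504 was higher in pif5 at day 3 by 0.56 (limma adjusted p = 0.0024). Rows 13361363 and 13498410 had differences of 0.27 (limma adjusted p = 0.12) and 0.05 (limma adjusted p = 0.84) there. In both, Col-0 had risen by 0.70 and 0.62 at day 3 and stayed up by 0.46 and 0.43 at day 6, just inside the rule.

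For 4 rows, named after their values were seen, the day 6 rise did not last, and the pif5 change at day 12 was under 0.5. Row 13533743 read 6.81, 5.62 and 4.82 in the pif5 day 6 arrays and 4.01 and 3.49 at day 12. Row 13506037 read 5.61, 5.29 and 4.59 and then 4.22 and 3.74, and row 13487896 read 4.87, 4.29 and 3.43 and then 3.54 and 3.73. Row 13372000 read 7.73, 7.16 and 6.53 and then 6.17 and 5.89. In all 4 replicate 1 was the highest and replicate 3 the lowest of the day 6 arrays, with SDs of 0.52 to 1.00, against a median SD of 0.14 over the 154 rows.

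Replicate 1 was the highest of the pif5 day 6 arrays in 72 of the 154 rows, replicate 2 in 6 and replicate 3 in 76. With replicate 1 left out of the pif5 day 6 mean, 151 rows met the rule, 134 of them among the 154. Without replicate 2 there were 188 (150 shared) and without replicate 3 there were 159 (140 shared).

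The gap at day 6 was also read from arrays left out of a choice, as a description. The labels do not say whether replicates are separate plants. The arrays left out may therefore not be independent of those that chose the rows. Rows were chosen by the same rule from 2 replicates of each group, and the day 6 gap was then read from the arrays of the remaining replicate number. Leaving out replicate 1 gave 154 rows, whose median gap was 1.15 in the choosing arrays and 1.09 in the arrays left out. Leaving out replicate 2 gave 190 rows with 1.16 and 0.93, and leaving out replicate 3 gave 164 rows with 1.11 and 1.098. The gap was above 0 in the arrays left out in 150, 183 and 161 of these rows, against 48.7%, 46.3% and 45.6% of all rows. Both thresholds of the rule were met there by 55.8%, 39.5% and 53.7% of the rows, against 0.952%, 0.573% and 0.888% of all rows.

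Set beside the other rows that rose in pif5 at day 6, the 154 rows differed in Col-0 at day 6, as the rule demands. They also differed in pif5 at day 3. The groups were split by their Col-0 change at day 6, so their day 3 values are given as a description. The 733 rows that also rose in Col-0 had risen by a median of 1.56 in pif5 at day 3, against 0.76 in the 154 rows and 0.56 in the 34 rows that fell in Col-0. At day 3, 9.28% of the 733 were higher in pif5 and 242 rows were lower, against 65.6% and 0 rows in the 154, and 73.5% and 0 rows in the 34. The medians at day 12 were close, at 1.32, 1.28 and 1.29.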

How the data were processed

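The deposited table holds log2 values of 26676 rows on 26 single-colour arrays, already summarised by the authors; array medians lay between 4.20 and 4.33. Per the submitters' processing notes the package oligo was used. Its version, the background correction and the normalization are not stated in those notes, and the number of arrays limits the precision. All 9 groups entered 1 limma fit (limma 3.58.1, R 4.3.3, lmFit and eBayes, 17 residual degrees of freedom, no filter on dim rows), adjusted by Benjamini-Hochberg over all rows at 0.05. No row was dropped, so all 154 chosen rows were tested. Contrasts compared only the means of days 1, 3 and 12, while the spread was estimated over all 26 arrays, those of the rule included; fits of the compared groups alone were an alternative. The members, lists and tests were chosen with earlier results of these data known. Rows named in the text are those with the widest gap at day 6 (10), the largest day 3 difference, Col-0 peak, pif5 rise from day 1 to day 3 and pif5 change from day 3 to day 12 (5 each, and the 2 lowest of the last), and the last 3 inside the rule. Rows at the edges of the rule were added, and other exceptions are marked. Alternatives were a replicate block, quantile normalization, centring, a filter on dim rows, robust eBayes, fits of single comparisons, other limits of the rule and each array left out. The subsets without single pif5 day 6 arrays and the division of the rows that never rose were added after the data were seen.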

Additional observations from a re-analysis of the deposited data

Results flagged for a closer look

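The change from day 1 to day 3 differed between the genotypes, tested by an interaction term in limma, in 36 of the 154 rows. All had the more positive change in pif5, as 3.9% of all rows did. Among the rows named in the report 12 passed. Many of the named rows were picked for day 1 or day 3 values that enter this term, so nothing is read from that count. In the rows that rose and returned in Col-0 the differences were 2.88 at row 13496624, 1.702 at row 13355657, 1.66 at row 13404150 and 0.97 at row 13501784. In the rows that first fell in Col-0 they were 1.17 at row 13387357, 1.00 at row 13430288, 0.75 at row 13352842, 0.73 at row 13384363 and 0.70 at row 13461191, with 1.33 at row 13465752, which reached its low at day 3. In the rows near light in Col-0 they were 1.65 at row 13378573 and 0.85 at row 13362164. At row 13465752 Col-0 fell by 0.80 while pif5 rose by 0.54, and row 13501784 was near the threshold (limma adjusted p = 0.049). Its call was lost in 11 alternatives and that of row 13352842 (limma adjusted p = 0.027) in 6.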

How the results depend on the processing

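The day 3 count of 101 rows higher in pif5 was 85 to 95 with 1 array left out. The ranges with 1 array left out were 67 to 76 for the 83 pif5 rises from day 1 to day 3, 15 to 25 for the 28 in Col-0, 24 to 34 for the 36 differences in change, 66 to 88 for the 88 rises from day 3 to day 12 and 110 to 115 for the 120 from day 1 to day 12. The 12 rows higher at day 1 were 6 to 13 with 1 array left out and 6 when only those groups were fitted. Arrays of the same number shared little of their deviations from the group means (correlations of -0.11 to 0.184 over 16 pairs, 3 of them above 0.1), which does not meet the condition for pairing that every pair exceed 0.1. An array correlated best with the array of its own number in 13 of 24 combinations of array and partner group, where 8 would do so if numbers carried no information, a hint of some sharing from the data and not from the design. With the replicate number as a block in the fit the counts were 103 at day 3, 12 at day 1, 84 and 30 for the rises from day 1 to day 3 in pif5 and Col-0, 39 for the difference, 90 and 119 for day 12; the block moved no count by over 1.5 times. Quantile normalization gave 107 and centring of arrays 95 at day 3. The rule kept 151 to 190 rows with arrays left out, 74 with the Col-0 change held within 0.25, and 100 where only that many were kept; a higher limit changes nothing, since 154 met it. The Col-0 courses of 102, 34 and 18 rows were 97 to 104, 31 to 39 and 16 to 19 with 1 array left out. Over 39 tests of single rows, 504 repeats kept the call and 25 lost it, the latter at rows 13368287 and 13437101 for day 12 against day 3 and at rows 13501784 and 13352842 for the difference in change. The day 3 difference of row 13467909 ran from -0.31 to 0.053 with 1 array left out, turning positive without Col-0 day 3 replicate 1. The cause was not tested.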
